A study of Mus musculus with 24 samples.

Results

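Nfil3, the PAR bZIP genes Dbp, Tef and Hlf, and the clock output gene Noct were followed through the tibialis anterior (TA) muscle of 24 mice. They are 5 of the 55487 genes listed in the count files. The members were chosen by their roles and with their levels in the 4 groups and both contrasts of photobiomodulation therapy (PBMT) against control already known, Nfil3 being among the genes lower with PBMT in sedentary muscle. Levels of the members and all their differences between groups are therefore given below as a description, with no test.

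Nfil3 encodes a basic leucine zipper repressor that binds the D-box, a short DNA element, and Dbp, Tef and Hlf encode the PAR bZIP activators that bind the same element. In the circadian clock, BMAL1 and CLOCK switch on Dbp through E-boxes, while the repressor REV-ERBα, encoded by Nr1d1, acts on Nfil3 through ROR elements, so that the repressor and the activators are known to peak at opposing times of day. Noct encodes nocturnin, a relative of the CCR4 deadenylases whose mRNA cycles in many tissues, and which is also described as a phosphatase of NADP(H). In skeletal muscle, clock output of this kind is known for its links to fuel use.

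The samples came from male C57BL/6J mice of 5 to 7 weeks under a 12 h light and 12 h dark cycle, with 6 mice in each of 4 groups. All mice were shaved, depilated and anesthetized. PBMT groups received 830 nm light from an LED at 25 mW/cm² for 20 min, a fluence of 30 J/cm², and the left TA was dissected 24 h later, while control groups received no light. Fatigued mice ran on a treadmill to exhaustion and were killed immediately afterwards, and sedentary mice did not run.

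Each state, sedentary or fatigued, thus has a control and a PBMT group, and each replicate is a mouse. Each state was also its own sequencing project, so a difference between states cannot be told apart from a difference between projects. The time of day of dissection is not given in the sources used here, and for genes that cycle over the day its part in any difference between groups was not tested. Mice had 43271093 to 46904076 counts in sedentary controls, from 46327516 to 52775844 in sedentary PBMT mice, from 56792327 to 68726155 in fatigued controls and from 53122528 to 68566029 in fatigued PBMT mice. The member with the lowest count, Hlf, had 588 or more counts in every mouse, so counting error in the members was small. Sedentary control replicate 4 stood apart from its group, with a chi-square per gene of 433 to 466 against the other mice, where the other pairs of that group had 13.5 to 74.2. In these bulk samples, fewer cells of a type and less RNA per cell cannot be told apart.

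The tissue label was checked against markers. Summed CPM (counts scaled to library size, with TMM factors) of 6 muscle fibre markers was 90200 ± 13700 (SD, n = 6) in sedentary controls, with the fast myosin gene Myh4 the most abundant. Summed CPM of 5 lymphocyte and NK cell markers was at most 0.204 on average in any group, and of 4 keratinocyte markers at most 7.18, so the muscle label was borne out by its markers.

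Nfil3, the repressor, lies on chromosome 13 from 52967209 to 52981073 on the minus strand (GRCm38, GENCODE M21). Its CPM in sedentary controls ran from 28.2 through a median of 30.8 to 36.5, and in sedentary PBMT mice from 13.1 through 15.9 to 20.9. In fatigued controls it ran from 52.0 through 60.7 to 68.1, and in fatigued PBMT mice from 49.7 through 66.1 to 78.2. Every sedentary PBMT mouse lay below every sedentary control, and every sedentary mouse lay below every fatigued mouse, while the ranges of the fatigued groups overlapped. Between mice the coefficient of variation of Nfil3 was 10.9% in sedentary controls, 17.1% in sedentary PBMT mice, 10.6% in fatigued controls and 18.2% in fatigued PBMT mice.

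Of the PAR bZIP activators, Dbp, on chromosome 7 from 45705088 to 45710203, ran from 74.4 through a median of 95.1 to 145 CPM in sedentary controls and from 74.1 through 81.1 to 98.3 CPM in sedentary PBMT mice. It ran from 41.6 through 65.9 to 85.3 CPM in fatigued controls and from 48.5 through 54.6 to 73.4 CPM in fatigued PBMT mice. Sedentary controls were highest and fatigued PBMT mice lowest, and each neighbouring pair overlapped, but all sedentary PBMT mice lay above all fatigued PBMT mice. Of the annotated genes, Sphk2 overlaps Dbp by 737 bases on the opposite strand, at 12.0 to 14.6 CPM in the group means, and the strand setting of the counting is not given in the sources used here, so reads from that overlap cannot be assigned.

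Tef, on chromosome 15 from 81802421 to 81826863, had the highest mean CPM per kilobase of the 5 members in every group. In sedentary controls the order was Tef (38.4 ± 3.54), Dbp (33.7 ± 8.33), Nfil3 (15.8 ± 1.71), Noct (3.73 ± 0.457) and Hlf (2.40 ± 0.391; SD, n = 6 each), where Tef and Dbp did not differ beyond their spread. In fatigued PBMT mice Nfil3 (32.3 ± 5.89) stood beside Tef (34.4 ± 1.52) within the spread, and in sedentary PBMT mice Hlf (2.37 ± 0.369) and Noct (2.34 ± 0.511) did not differ beyond theirs.

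Tef ran from 269 through a median of 301 to 341 CPM in sedentary controls and from 226 through 289 to 302 CPM in sedentary PBMT mice, and its group means were 268 ± 16.9 CPM in fatigued controls and 271 ± 12.0 CPM in fatigued PBMT mice (SD, n = 6 each). All 4 ranges overlapped. Hlf, on chromosome 11 from 90336536 to 90390895, had medians of 15.4 CPM in sedentary controls (12.9 to 19.5) and 15.9 CPM with PBMT (12.8 to 19.3), and of 14.6 CPM in fatigued controls (12.0 to 17.7) and 13.7 CPM with PBMT (12.0 to 17.1). Its ranges overlapped throughout.

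Noct, on chromosome 3 from 51224447 to 51251644, followed the same order in sedentary muscle as Nfil3. It ran from 32.2 through a median of 41.4 to 44.8 CPM in sedentary controls and from 18.0 through 23.1 to 33.5 CPM in sedentary PBMT mice, with 5 of the 6 PBMT mice below every control. In fatigued controls it ran from 31.9 through 47.0 to 54.6 CPM and in fatigued PBMT mice from 34.6 through 44.6 to 53.6 CPM, with much overlap. Sedentary PBMT mice thus had the lowest levels of both Nfil3 and Noct of the 4 groups.

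**Figure D1:**
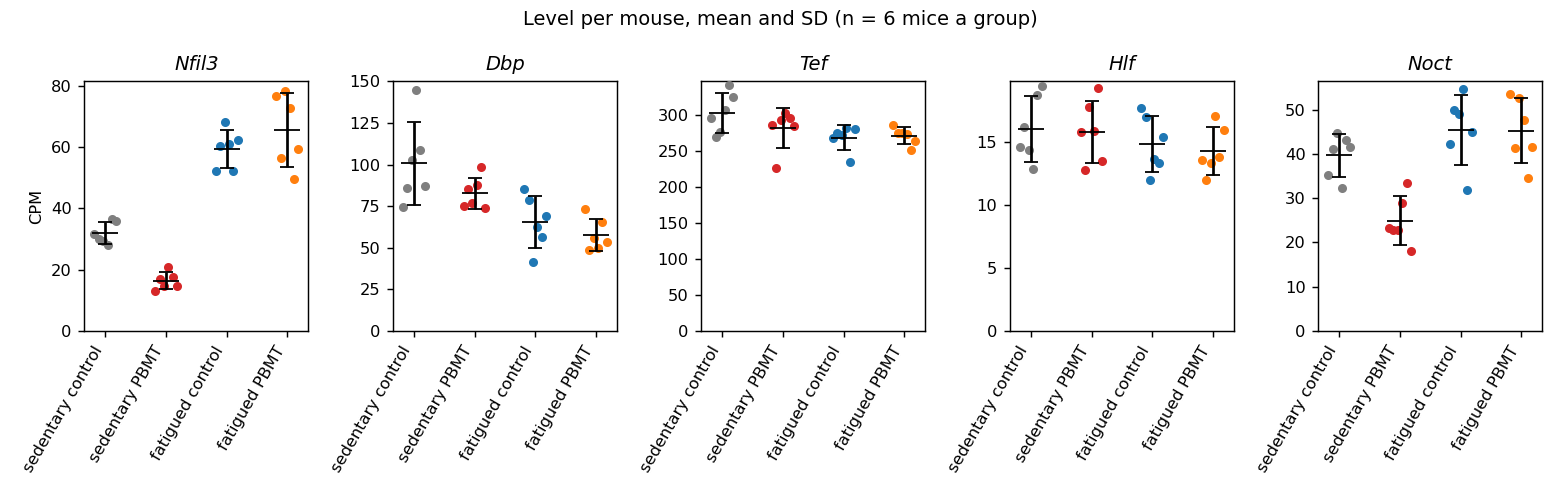
Level of each member in CPM (vertical axis, from 0) for each mouse in the 4 groups, with dots for mice, a horizontal mark for the mean and bars for the SD (n = 6). The sedentary PBMT group is lowest for Nfil3 (mean 16.3 CPM) and Noct (mean 24.9 CPM), and the groups of Tef and Hlf overlap.

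The PBMT contrasts, which chose the members, read as follows. In sedentary muscle the log2 fold change with PBMT was −0.96 (SE 0.109) for Nfil3, −0.67 (SE 0.128) for Noct, −0.27 for Dbp, −0.10 for Tef and −0.01 for Hlf, against a median of −0.002 over all genes tested. Without sedentary control replicate 4, the mouse with the highest Dbp, the value of Dbp was −0.15. In fatigued muscle it was 0.14 (SE 0.112) for Nfil3, −0.01 for Noct, −0.18 for Dbp, 0.01 for Tef and −0.06 for Hlf. Leaving out each mouse in turn gave 0.087 to 0.211 for Nfil3 and −0.285 to −0.094 for Dbp. The difference of the PBMT effect between states, fatigued minus sedentary, was 1.11 (SE 0.161) for Nfil3 and 0.66 (SE 0.191) for Noct.

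At an edgeR adjusted p under 0.05, 1 of the 5 members was called in the sedentary contrast, where 0.0282% of 14177 genes were (2 of 5 with DESeq2, Noct being the other, where DESeq2 called 0.437% of genes), and 0 of 5 in the fatigued contrast, where 0% of 14574 genes were. In the fatigued contrast 157 genes were higher and 73 lower at an unadjusted p under 0.05, and DESeq2 called 2 genes. For the difference between states 1 of 5 members was called, Nfil3 itself, where 0.00662% of 15108 genes were. Groups did not overlap in CPM for 1 of 5 members in sedentary muscle, against 0.48% of all genes, and for 0 of 5 in fatigued muscle, against 0.0274%. Because these contrasts chose the members, nothing is read from these counts.

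Differences between fatigued and sedentary mice are also a description, since the levels in all 4 groups were known when the members were chosen. Among controls the log2 difference, fatigued minus sedentary, was 0.89 (SE 0.114) for Nfil3, with every fatigued control above every sedentary control, and −0.62 (SE 0.154) for Dbp, with overlapping groups. It was −0.17 for Tef, −0.11 for Hlf and 0.19 for Noct. At an edgeR adjusted p under 0.05, 2 of 5 members were called, against 18.6% of 15108 genes, and groups did not overlap for 1 of 5, against 7.7%, and nothing is read from these counts.

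Among PBMT mice the log2 difference, fatigued minus sedentary, was 2.01 for Nfil3, 0.86 for Noct and −0.52 for Dbp, with −0.05 for Tef and −0.15 for Hlf. Groups did not overlap for 3 of the 5 members, Nfil3, Noct and Dbp, against 11.2% of all genes. The gap was narrow for Dbp (74.1 CPM lowest sedentary PBMT, 73.4 highest fatigued PBMT) and Noct (33.5 CPM highest sedentary PBMT, 34.6 lowest fatigued PBMT). At an edgeR adjusted p under 0.05 the same 3 of 5 were called, against 26.8% of all genes, and nothing is read from these counts.

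Taking the repressor over its activators per kilobase, the ratio of Nfil3 to the sum of Dbp, Tef and Hlf was 0.214 ± 0.0323 in sedentary controls, 0.122 ± 0.0183 in sedentary PBMT mice, 0.509 ± 0.0899 in fatigued controls and 0.578 ± 0.0945 in fatigued PBMT mice (SD, n = 6 each). It ran from 0.156 to 0.242 in sedentary controls and from 0.394 to 0.668 in fatigued controls, with no overlap. Being built from the levels known at the choice, the ratio is a description too.

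Over all 15108 genes, 18.6% were called between states among controls and 26.8% among PBMT mice, and the counts of list genes below stand beside these shares. The lists below were also chosen with earlier results of these data known. Their counts, signs and p are therefore a description too, and not independent evidence. The core clock was read from a list of 6 activators and 10 repressors; Rorb was below the filter on low counts. In sedentary muscle edgeR called 0 of 15 tested genes with PBMT, where it called 0.0282% of 14177 genes. DESeq2 called 1 of 5 activators (Arntl) and 2 of 10 repressors (Nr1d1 and Bhlhe40), all higher, where it called 0.437% of genes. With no filter edgeR called the same 2 repressors. All 5 tested activators had positive fold changes, with a median of 0.35 against −0.002 over all genes tested, and the smallest p were those of Arntl, which encodes BMAL1, at 0.54 (edgeR adjusted p = 0.144) and Clock at 0.35 (0.349). Of the 10 repressors 4 were positive and 6 negative. Nr1d1 at 0.44 (edgeR adjusted p = 0.0562) and Bhlhe40 at 0.44 (0.0896) had the smallest p, and Arntl, Nr1d1 and Bhlhe40 had PBMT mice all above controls, groups not overlapping in 0.48% of all genes.

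In fatigued muscle 0 of 15 core clock genes were called with PBMT, with Bhlhe40 at 0.51 and Nr1d2 at −0.15 the repressors of smallest p and Arntl at 0.45 and Npas2 at 0.85 the activators. The difference of the PBMT effect between states called 0 of 15, with Nr1d1 at −0.41 and Nr1d2 at −0.23 of smallest p among repressors and Clock at −0.23 and Npas2 at −0.47 among activators. Among controls, Cry2 was higher in fatigued mice (0.66, SE 0.155, edgeR adjusted p = 0.00428) and Bhlhe40 lower (−0.63, SE 0.146, edgeR adjusted p = 0.00387), and no activator was called (Clock −0.35, Npas2 1.13). Among PBMT mice, 2 of 10 repressors were higher, Cry2 (0.93) and Per2 (0.66), and 3 lower, Nr1d1 (−0.52), Bhlhe40 (−0.56) and Nr1d2 (−0.34), with the activator Clock also lower (−0.58, edgeR adjusted p = 0.00329).

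Genes described as targets of PAR bZIP proteins or of clock output were listed separately; 10 of 12 were tested. With PBMT edgeR called 0 of 10 in either state, and DESeq2 called Ucp3 as lower in sedentary muscle, where it called 0.437% of all genes. In sedentary muscle 9 of 10 were negative, with a median of −0.32 against −0.002 over all genes tested, with the smallest p for the uncoupling protein gene Ucp3 at −0.83 (edgeR adjusted p = 0.337) and the deubiquitinase gene Usp2 at −0.37 (0.349). In fatigued muscle 6 of 10 were negative, with a median of −0.04, and the smallest p were those of Pdxk at 0.50 and Ucp3 at −0.20. Among controls, the pyridoxal kinase gene Pdxk was higher in fatigued mice at 1.76 (SE 0.218, edgeR adjusted p = 9.87e-06), as was the cytochrome P450 reductase gene Por at 0.38 (0.0344). Among PBMT mice, where 26.8% of all genes were called, 5 of 10 were higher, namely Pdxk at 2.53, Ucp3 at 1.18, Pdk4 at 0.94, Usp2 at 0.66 and Por at 0.58, and Nampt, which makes an NAD precursor, was lower at −0.25. For the difference between states 0 of 10 were called, with Pdxk at 0.78 and Tcap at 0.35 of smallest p.

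**Figure D2:**
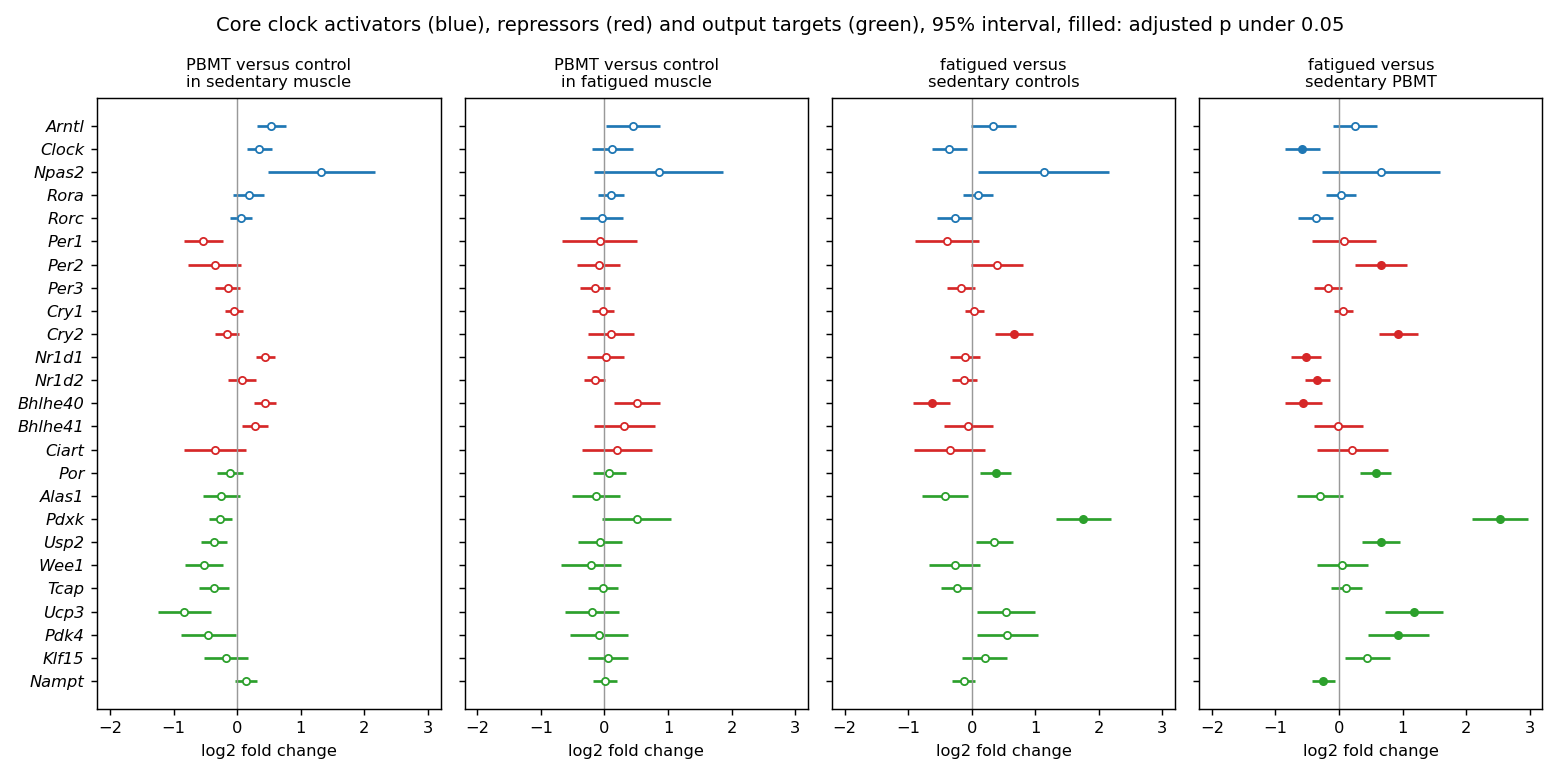
Log2 fold change (horizontal axis) of the tested core clock activators, core clock repressors and output targets in 4 comparisons. Points are estimates, filled where the edgeR adjusted p was under 0.05. Bars are approximate 95% intervals, built from the SE with a normal quantile. The bars are narrower than intervals from the edgeR test, so some leave out no change where the unadjusted test did not pass. With PBMT no point is filled, and between states Pdxk has the largest value, 2.53 among PBMT mice.

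Relatives of Noct showed no call with PBMT: 0 of 10 deadenylases and related genes in either state, with Pan2 at −0.13 and Pde12 at 0.14 of smallest p in sedentary muscle and Cnot7 at −0.08 and Pan2 at 0.12 in fatigued muscle. Among controls Angel1, of the same protein family as Noct, was higher in fatigued mice at 0.27 (edgeR adjusted p = 0.0327). Among PBMT mice Angel1 at 0.30 and Pan3 at 0.39 were higher, and the CCR4-NOT subunit genes Cnot7 at −0.48 and Cnot6 at −0.36 were lower, as was Angel2 at −0.22. Of the C/EBP genes, 0 of 5 were called with PBMT, with Cebpb at −0.46 and Cebpa at −0.23 in sedentary and Cebpd at 0.39 and Cebpb at 0.14 in fatigued muscle. Among controls Ddit3, a stress-induced partner of C/EBP proteins, was higher in fatigued mice at 0.68 (edgeR adjusted p = 0.014) and Cebpd lower at −0.93 (0.0497), and among PBMT mice Ddit3 was higher at 0.65 (0.012). The difference of the PBMT effect between states called none of these genes, Pan2 (0.26), Cnot7 (−0.22), Cebpb (0.61) and Cebpd (0.44) having the smallest p of their lists.

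Glucocorticoid-responsive genes were included because glucocorticoids also act on the clock. With PBMT edgeR called 0 of 9 in either state, and DESeq2 called Zbtb16 as lower in sedentary muscle, where it called 0.437% of all genes. In sedentary muscle 7 of 9 were negative, with the smallest p for Zbtb16 at −0.44 (edgeR adjusted p = 0.168, PBMT mice all below controls) and Tsc22d3 at −0.39. In fatigued muscle 9 of 9 were positive, with a median of 0.24 against 0.004 over all genes tested, with the smallest p for Mt1 at 0.55 and Sgk1 at 0.28. Among controls Mt1 at 1.66, Mt2 at 1.96, Zbtb16 at 0.90 and Fkbp5 at 0.79 were higher in fatigued mice and Sgk1 was lower at −0.66. The same 4 genes were higher among PBMT mice, at 2.79, 3.24, 1.65 and 0.95, and Sgk1 lower at −0.47. The difference of the PBMT effect between states called 0 of 9, with Zbtb16 at 0.75 and Mt1 at 1.13 of smallest p.

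Other cell types were followed because Nfil3 is also expressed by blood-derived cells. Myeloid markers summed to 53.8 ± 20.9 CPM in sedentary controls, 36.0 ± 9.45 in sedentary PBMT mice, 58.9 ± 15.9 in fatigued controls and 61.6 ± 32.1 in fatigued PBMT mice (SD, n = 6 each), with Lyz2 most abundant and no marker at 0 in any group. In sedentary muscle 5 of 5 myeloid markers were negative with PBMT and 0 of 5 were called, Csf1r being at −0.55 (edgeR adjusted p = 0.506) and Lyz2 at −0.59 (0.639). In fatigued muscle with PBMT 0 of 5 were called (Cd68 0.32, Ptprc 0.22), as among controls between states (Csf1r 0.53, Adgre1 0.37) and for the difference of the PBMT effect (Csf1r 0.60, Cd68 0.87). Among PBMT mice 3 of 5 were higher in fatigued muscle, Csf1r at 1.13, Adgre1 at 1.05 and Cd68 at 0.97. With PBMT in sedentary muscle, between states among PBMT mice and for the difference of the PBMT effect, 5 of 5 myeloid markers thus had the sign of Nfil3 and Noct. Fibroblast and tendon markers were 5 of 5 positive in the last 2 of these comparisons, with 3 negative and 2 positive in the first. Adipocyte markers were 4 of 4 positive between states among PBMT mice, and 2 positive and 2 negative in each of the other 2 comparisons. All 3 comparisons include the sedentary PBMT mice, so agreement of signs across them is not independent. In fatigued muscle with PBMT and among controls between states, which lack that group, 4 of 5 myeloid markers were positive each time. Their medians were 0.049 and 0.098. The part of the myeloid, fibroblast and tendon, and adipocyte markers in the results was not tested.

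Muscle fibre markers summed to 95200 ± 8030 CPM in sedentary PBMT mice, 123000 ± 11300 in fatigued controls and 122000 ± 11700 in fatigued PBMT mice (SD, n = 6 each). Among controls 3 of 6 were higher in fatigued mice, Myh4 at 0.86, Acta1 at 0.36 and Ckm at 0.29, and among PBMT mice 2 of 6, Myh4 at 0.65 and Acta1 at 0.30. With PBMT 0 of 6 were called in sedentary (Myh2 −0.32, Myh4 0.22) or fatigued muscle (Mylpf −0.08, Myh1 −0.09), or for the difference between states (Myh2 0.41, Myh4 −0.21). Of the endothelial, keratinocyte, adipocyte, fibroblast and tendon, and erythrocyte markers tested, 0 were called with PBMT, and among PBMT mice 3 of 5 fibroblast and tendon markers (Pdgfra at 0.83, Dcn at 0.45, Fmod at 1.17), 1 of 4 endothelial markers (Pecam1 at 0.40) and 1 of 4 adipocyte markers (Cidec at 1.56) were higher in fatigued mice and Krt10 was lower at −1.52. No erythrocyte marker was called in any comparison.

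Where a list of these markers had no call, its markers of smallest p were as follows. With PBMT in sedentary muscle they were Kdr (0.45) and Tek (0.19) of endothelium, Krt10 (0.97) of keratinocytes, Lep (−0.19) and Plin1 (0.25) of adipocytes, Pdgfra (−0.18) and Dcn (−0.17) of fibroblasts and tendon, and Hbb-bt (−0.25) and Alas2 (0.08) of erythrocytes. In fatigued muscle they were Pecam1 (0.12), Kdr (0.23), Krt10 (−0.09), Cidec (0.37), Lep (−0.31), Scx (0.22), Tnmd (0.35), Alas2 (0.09) and Hbb-bs (0.05). Among controls between states they were Pecam1 (0.27), Cdh5 (0.23), Krt10 (−0.47), Cidec (1.31), Lep (0.77), Pdgfra (0.52), Fmod (0.98), Hbb-bt (−0.71) and Hba-a2 (−0.69), and among PBMT mice Hba-a2 (−0.60) and Hbb-bt (−0.42). For the difference of the PBMT effect they were Pecam1 (0.13), Kdr (−0.22), Krt10 (−1.05), Plin1 (−0.39), Cidec (0.25), Dcn (0.27), Pdgfra (0.31), Hbb-bt (0.30) and Hbb-bs (0.10).

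Mice also differed inside their groups, which the choice of the members did not use. Relations between log2 CPM values after subtracting group means numbered 85, 10 between pairs of members and 75 between a member and a core clock gene. Permutations within groups took each mouse as independent, and shared treadmill sessions were not tested. For r, 18 relations passed a Benjamini-Hochberg adjusted permutation p of 0.05 over the 24 mice. Of these, 1 was between members and 17 between a member and a clock gene (15 positive, 2 negative). At the largest permutation p among these, 0.00964, 5.34% of the 75535 relations of a member with any other gene passed, from 1.34% for Nfil3 to 8.76% for Dbp, a share added after the values were seen. Nfil3 passed with 1 of 15 clock genes, Dbp with 2, Tef with 3, Hlf with 5 and Noct with 6. Nfil3 and Noct deviated together, with r = 0.706 (permutation p = 0.00049, adjusted 0.00935) and rho = 0.728 (permutation p = 0.00048, adjusted 0.0102). Without the 2 mice farthest from the median deviation of Nfil3 r was 0.646, and r was 0.569 within the sedentary and 0.832 within the fatigued project. With the PAR bZIP activators Nfil3 did not pass, at r = 0.411 and rho = 0.479 for Tef (r = 0.661 in the fatigued project), −0.055 for Dbp and 0.172 for Hlf.

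Between Noct and Ciart, a repressor of the clock, r was 0.786 and rho 0.825 (permutation p = 6e-05 for each, adjusted 0.00227 and 0.00297), 0.795 without the 2 farthest mice, 0.838 in the sedentary and 0.738 in the fatigued project. Between Noct and Per2 r was 0.704 and rho 0.708 (permutation p = 0.00092 and 0.00075), and with Bhlhe40 r was −0.668 and rho −0.654 (permutation p = 0.00055 and 0.00166). Tef followed Per1 with r = 0.629 and rho = 0.622 (permutation p = 6e-05 and 0.00013), r falling to 0.473 without the 2 farthest mice. Dbp opposed Clock with r = −0.706 and rho = −0.798 (permutation p = 8e-05 and 7e-05) and followed Cry2 with r = 0.667 and rho = 0.637 (permutation p = 0.00072 and 0.00345). Hlf followed Per2 with r = 0.655 and rho = 0.623 (permutation p = 0.00166 and 0.00279).

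Of these 18 relations, 9 still passed without the 2 farthest mice, 3 within the sedentary and 1 within the fatigued project alone, where 12 mice are left. Every one of the 18 kept its sign in all of these. Relations that no longer passed without the 2 farthest mice, such as Nfil3 with Ciart (r = 0.597, then 0.44), Tef with Rora (0.67, then 0.524), Dbp with Cry2 (0.667, then 0.579) and Noct with Nr1d2 (0.507, then 0.56), were read from fewer mice, some with a smaller r and some with a larger one, and why they did not pass was not tested. Without fatigued PBMT replicate 5, left out after the values were seen, 11 of the 18 passed, Nfil3 with Noct among them (r = 0.656).

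**Figure D3:**
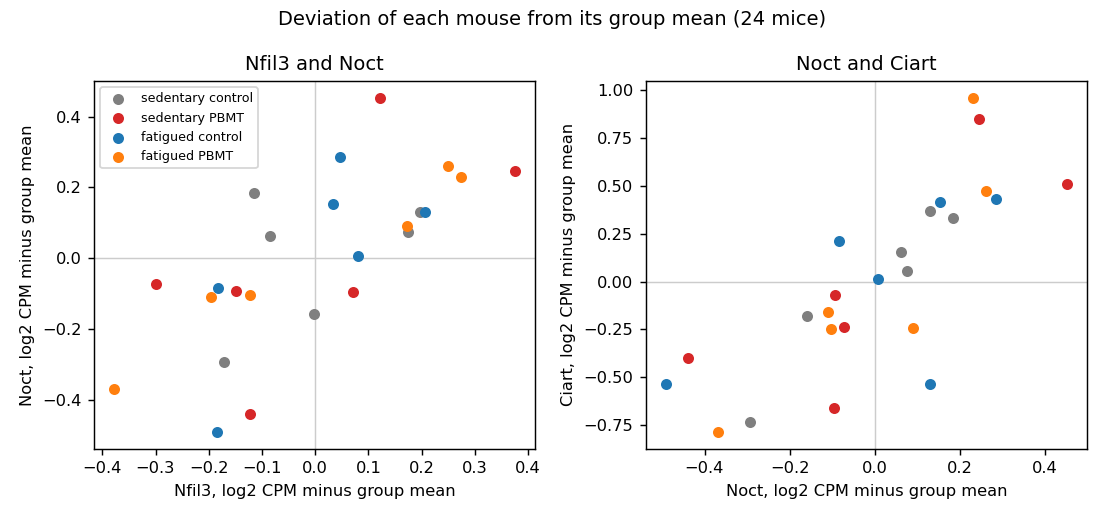
Deviation of log2 CPM from the group mean in each of 24 mice (both axes), for Nfil3 against Noct and for Noct against Ciart, with points coloured by group. Points rise from lower left to upper right in both panels (r = 0.706 and 0.786).

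As a measure of likeness with no test, log2 CPM over all 24 mice was correlated with every other gene among the 15108 tested, 15107 genes. The groups of Nfil3 lie apart, so these r are set mainly by group differences, and r inside groups is given beside them. Most like Nfil3 were Map3k6 (r = 0.951, inside groups 0.55), the salt-inducible kinase gene Sik1 (0.945, inside 0.738), Rnf144b (0.941, inside 0.616), the amino acid transporter gene Slc7a8 (0.937, inside 0.388) and BB123696 (0.926, inside 0.523). BB123696 is a long non-coding RNA on chromosome 13 from 52729615 to 52757205 on the minus strand, the strand of Nfil3, with mean levels of 0.573 CPM in sedentary controls, 0.298 with PBMT, 3.53 in fatigued controls and 3.65 with PBMT. Most opposite to Nfil3 were Fam13a (r = −0.898, inside groups −0.137), Mum1l1 (−0.886, inside −0.003), Rcor3 (−0.88, inside −0.136), Chd2 (−0.879, inside −0.206) and Vps37a (−0.877, inside −0.08).

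Most like Dbp were the pseudogenes Gm2830 (r = 0.916, inside groups 0.806) and Gm16378 (0.86, inside 0.654), whose reads may be shared with a parent gene, followed by Pdcd4 (0.859, inside 0.72), the complex I subunit gene Ndufb11 (0.856, inside 0.628) and Pam16 (0.855, inside 0.645). Most opposite were Tlr5 (r = −0.902, inside groups −0.835), Fndc3b (−0.842, inside −0.592), Casp12 (−0.835, inside −0.728), St8sia6 (−0.817, inside −0.511) and Gamt (−0.815, inside −0.602). Sedentary control replicate 4, which had the highest Dbp and stood apart over all genes, was kept in these r. Its part in them was not tested.

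Promoter windows from RefSeq (GRCm38.p6), from 250 bases before to 50 bases after a start, were searched on both strands for elements through which clock factors are known to act. The motifs were the D-box (TTATGTAA or TTACGTAA), the E-box (CACGTG), an E-box variant (CACGTT), the cAMP response element (TGACGTCA) and the core of the ROR element (TAGGTCA or TGGGTCA). Of 32851 windows, 1.06% held a D-box, 7.15% an E-box, 4.68% the E-box variant, 1.79% the cAMP response element and 6.45% the ROR core. All 5 members had a window, and Tef had 2. A match is a description of letters, and an absent match says only that the letters are not in the window.

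Sequences are shown for the members with a match and for Noct, which deviated together with Nfil3 between mice, as the gene reads 5′ to 3′, with the match in capitals. The Nfil3 window (chr13:52980990-52981289, minus strand) held a ROR core on the opposite strand that began 12 bases before the start. Both Tef windows (chr15:81802423-81802722 and chr15:81811164-81811463, plus strand) held an E-box, beginning 127 and 138 bases before the start. The Hlf window (chr11:90390868-90391167, minus strand) held a cAMP response element 9 bases before the start. The Noct window (chr3:51224197-51224496, plus strand) and the Dbp window (chr7:45704997-45705296, plus strand) held none of the 5 motifs.
Nfil3: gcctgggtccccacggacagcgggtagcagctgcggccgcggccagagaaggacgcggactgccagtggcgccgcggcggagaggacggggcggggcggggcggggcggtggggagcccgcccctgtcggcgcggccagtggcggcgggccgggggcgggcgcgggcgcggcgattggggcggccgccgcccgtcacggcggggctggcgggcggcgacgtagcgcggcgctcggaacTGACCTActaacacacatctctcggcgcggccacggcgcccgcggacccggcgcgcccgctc
Tef, upstream start: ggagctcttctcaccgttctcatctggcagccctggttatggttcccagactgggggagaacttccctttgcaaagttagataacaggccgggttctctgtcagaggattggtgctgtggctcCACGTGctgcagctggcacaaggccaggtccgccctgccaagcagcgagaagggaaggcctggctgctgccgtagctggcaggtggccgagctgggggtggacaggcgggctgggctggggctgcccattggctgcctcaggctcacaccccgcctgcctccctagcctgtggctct
Tef, downstream start: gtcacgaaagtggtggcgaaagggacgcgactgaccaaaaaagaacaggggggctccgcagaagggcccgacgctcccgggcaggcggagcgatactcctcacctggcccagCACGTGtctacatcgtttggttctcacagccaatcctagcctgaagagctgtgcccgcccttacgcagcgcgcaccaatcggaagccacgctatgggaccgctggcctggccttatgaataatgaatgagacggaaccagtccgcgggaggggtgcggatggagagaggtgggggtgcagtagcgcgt
Hlf: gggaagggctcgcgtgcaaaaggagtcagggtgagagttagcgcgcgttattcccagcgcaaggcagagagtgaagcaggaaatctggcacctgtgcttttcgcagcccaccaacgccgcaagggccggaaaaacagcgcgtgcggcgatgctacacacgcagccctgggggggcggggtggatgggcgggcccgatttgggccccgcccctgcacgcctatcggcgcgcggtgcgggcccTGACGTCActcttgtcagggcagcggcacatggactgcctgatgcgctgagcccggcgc
Noct: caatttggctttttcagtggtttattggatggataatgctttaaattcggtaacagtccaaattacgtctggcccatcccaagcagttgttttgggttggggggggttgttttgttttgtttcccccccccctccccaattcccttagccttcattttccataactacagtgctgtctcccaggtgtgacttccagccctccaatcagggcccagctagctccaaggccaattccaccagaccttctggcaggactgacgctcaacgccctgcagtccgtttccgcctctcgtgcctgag

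Genes with a D-box in a window, the element that Nfil3 and the PAR bZIP proteins share, were few among those tested. Of 88 such genes tested in sedentary muscle 0 were called with PBMT, the median being −0.05 against 0 over the 10357 tested genes with a window. Of 97 tested between states, 10 were called higher and 8 lower in fatigued controls, 18.6% against 18.0% of 10846 genes, and 13 higher and 13 lower among PBMT mice, 26.8% against 27.8%. Of the 5 core clock activators and 8 repressors with a window, Per3 held a D-box.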

How the data were processed

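Count files that the authors deposited, with an integer for every gene in each of 24 mice, were used as given. The submitters' processing notes name Trimmomatic, STAR 2.7.1a, Picard 2.20.4, StringTie 2.0.4, featureCounts 1.6.0, HTSeq and GRCm38, with no role or order; the annotation release and the strand setting are not given in the sources used here. Of 55487 identifiers, 55141 matched GENCODE M21, from which symbols, positions and exon lengths were taken. No pair of mice in a group agreed within sampling noise.

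PBMT contrasts were fitted within each project and all other comparisons over the 24 mice, in R 4.3.3 with edgeR 4.0.16 (TMM, filterByExpr with a minimum count of 10, robust quasi-likelihood fits, Benjamini-Hochberg over all genes tested, threshold 0.05). Log2 CPM used a prior count of 2. Relations between mice used 100000 permutations within groups, with each mouse taken as independent. DESeq2 was an alternative, with other scaling, no filter, a replicate block and each mouse left out. The procedure was tested on simulated data, and no result given here rests on that test.

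Members and lists (core clock, output targets, deadenylases, C/EBP, glucocorticoid-responsive genes and cell type markers) were chosen with earlier results of these data known. Named genes are the members, list genes that passed, otherwise the 2 of smallest unadjusted p in a list, and the 5 genes most like and most opposite to Nfil3 and to Dbp. Rorb, Nr1i3, Fgf21, Cebpe, Krt5, Krt14, Krt1 and the 5 lymphocyte and NK markers were below the filter, so Krt10 alone stands for keratinocytes in the fits.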

Additional observations from a re-analysis of the deposited data

Results flagged for a closer look

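Among 60 sets of 6 mice examined (members, their ratio and marker sums), 7 held a mouse far from the others; chance alone sets apart about 1 in 20. Tef was lowest at 235 CPM in fatigued control replicate 5 and at 226 CPM in sedentary PBMT replicate 2, with the nearest mice at 268 and 285 CPM. Summed muscle fibre markers reached 117000 CPM in sedentary control replicate 4, the mouse with the highest Dbp of its group. That mouse also stood apart over all genes, and the cause was not tested. Summed keratinocyte markers reached 4.4 CPM in fatigued control replicate 2, 5.27 in sedentary control replicate 3 and 25.4 in sedentary PBMT replicate 4, the mouse with the highest Nfil3 of its group (20.9 CPM). Summed fibroblast and tendon markers reached 1050 CPM in fatigued PBMT replicate 5, the mouse with the lowest Nfil3, Noct and Tef of its group.

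The PBMT effect on Nfil3 differed between fatigued and sedentary mice by 1.11 on the log2 scale, which is a description because both PBMT contrasts entered the choice of Nfil3.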

How the results depend on the processing

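Between states among controls, Tef was also called, at −0.17, without sedentary PBMT replicate 2 (fits without a mouse −0.20 to −0.13), and the calls of the other members did not change. With PBMT in sedentary muscle Noct was also called by DESeq2, with no filter and without sedentary PBMT replicate 5, at values of −0.77 to −0.59 without a mouse. DESeq2 called 0.437% of 14177 genes there. The members were chosen with these comparisons known, so nothing is read from their calls. Dbp ran from −0.34 to −0.15 in sedentary muscle without a mouse, −0.15 being without sedentary control replicate 4, and Tef from −0.13 to −0.04. Counts of called genes moved more. With PBMT in sedentary muscle 4 genes were called, but 16 with no filter, 62 with DESeq2 and 1 with all 24 mice in a single model, and 2 to 20 without a mouse. The count was 2 without sedentary control replicate 1, 2 or 6, 18 without sedentary control replicate 4, and 10, 7 and 20 without sedentary PBMT replicates 2, 4 and 5. In fatigued muscle DESeq2 called 2 genes, and 0 were called whichever mouse was left out. For the difference between states 1 was called, 3 with DESeq2 and 1 to 3 without a mouse, 3 being without sedentary PBMT replicate 2. The cause of these shifts was not tested. Of the list genes called between states, Por, Angel1, Cebpd and Ckm among controls and Per2, Nampt, Pan3, Angel2, Cd68, Adgre1, Cidec, Dcn and Fmod among PBMT mice were not called in every alternative. With PBMT in sedentary muscle Nr1d1 was called without sedentary control replicate 4, and Nr1d1 and Bhlhe40 without sedentary PBMT replicate 5. Relations between mice that passed fell from 18 to 10 without the 2 farthest mice and to 5 and 2 within the sedentary and the fatigued project, which hold fewer mice. Alternatives chosen after seeing the data gave 22 without sedentary control replicate 4 (15 of the 18) and 11 without fatigued PBMT replicate 5 (11 of the 18).

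Replicate numbers are not given as a pairing of mice. Same-numbered deviations correlated at −0.0715 to 0.0664 between the sedentary groups and at −0.0846 to 0.325 between the fatigued groups, where 1 of 6 and 3 of 6 mice matched their own number best; shared sessions were not tested. With the number as a replicate block, 11 genes were called with PBMT in sedentary and 1 in fatigued muscle.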
